A study of Gallus gallus with 6 samples.

Results

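The genes described here serve endosomes, vesicle traffic and the proton pump of acid organelles in chicken macrophages. They were chosen by a rule on names: all genes of the array's probe table whose symbol begins with RAB, ARF, ARL, VPS, CHMP, SNX, STX, VAMP, SNAP, SEC, COP, TMED or ATP6. This rule used no measured value, though it was chosen with earlier results of these data known. It gave 79 of 2253 named genes, read by 112 cDNA clones with 3 spots each. No symbol beginning with SNAP was on the list, and 4 members share only the letters, namely COPS3, COPS4 and COPS8 of the COP9 signalosome and SECISBP2L, a relative of a selenocysteine insertion factor.

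The chicken cells were labelled as peripheral blood lymphocyte macrophages, and RNA was taken after 1, 2, 4 and 8 h of the experiment. Treated cells met either whole E. coli of the laboratory strain XL10 or lipopolysaccharide (LPS), the outer membrane glycolipid of Gram-negative bacteria, here from S. typh, while reference cells were unstimulated. For the samples after 2 h the stimulus was taken away at 2 h, so the 4 h and 8 h cells of both treatments spent their last hours without it. The labels used here give neither age, breed, number of birds nor pooling. Of the 5 ratio arrays, the first 2 set cells after 1 h of E. coli (the E. coli 1 h array) or of LPS (the LPS 1 h array) against unstimulated ones. The E. coli time array set cells at 4 h against cells at 2 h of E. coli treatment. The 4 h array and the 8 h array each set E. coli against LPS treatment at the time in their name. Another array carried LPS 2 h alone and gave an intensity, with a median of 0.632 over the members, from 0.0116 to 5.97, against a median of 0.509 over all named genes.

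Macrophages take in bacteria by phagocytosis and turn the new vacuole into an acid, digestive compartment. RAB GTPases mark each stage of that path, with RAB5 proteins on early and RAB7 proteins on late endosomes, while ARF GTPases and coat proteins form vesicles and SNAREs fuse them. ESCRT complexes sort receptors into inner vesicles for destruction, retromer and sorting nexins bring cargo back, and the vacuolar proton pump (V-ATPase) acidifies the lumen. The same machinery carries toll-like receptors to the surface and to endosomes and secretes cytokines.

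Each comparison rests on 1 array, so no test between conditions was possible, and precision is limited by that number. Values are log2 ratios as the authors deposited them, with base 2 assumed, after subtraction of each array's median. A gene counted as past 2-fold at a size of 1 or more. The number after ± is the standard deviation (SD) over a gene's spots, which is technical spread on the same array and contains no difference between cultures. In bulk RNA, fewer cells of a type and less RNA per cell cannot be told apart.

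The numerator of the ratios is not given in the sources used here, so signs are as deposited and are not read as more or less RNA in a condition. Genes known to respond to LPS show on which side each array put them. In the E. coli 1 h comparison the chemokine CCL20 had 6.0, the cytokine IL1B 3.38 and the NF-kB inhibitor NFKBIA 2.18. On the LPS 1 h array, where the labels put LPS in channel 2 and unstimulated cells in channel 1, they had -6.46, -5.10 and -1.91. The labels put E. coli RNA in channel 1 on the E. coli 1 h, 4 h and 8 h arrays and E. coli 2 h there on the E. coli time array. For the array of E. coli at 1 h the title gives the opposite order, with the control leading, so its orientation is in doubt. Members are set beside these genes where that helps, since lying on the same side does not depend on the numerator.

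The cells carried macrophage transcripts. Of 12 macrophage markers 11 were on the array, and 8 of them were in the brightest 25% of genes at LPS 2 h. Markers of other blood cells were sparse on the array, with 1 of 7 for T cells, 2 of 6 each for B cells, thrombocytes and erythroid cells, and 3 of 6 for heterophils. Apart from CD3D of T cells, those past 2-fold were the B cell marker BCL6 (-1.02 on the LPS 1 h array), the erythroid marker HBBA (1.79 at 4 h) and the heterophil marker S100A12 (-1.35, -1.34 and -2.18 on the last 3 arrays), and no thrombocyte marker. CD3D was bright at LPS 2 h, at an intensity of 5.40 ± 0.401. In the brightest 25% of genes there were also 2 of the 3 heterophil markers, LYZ and S100A12. The same held for 1 of the 2 thrombocyte markers, TUBB1, and for no B cell or erythroid marker. Brightness therefore did not set the macrophage markers apart from all others. On the 4 h and 8 h arrays 9 of the 11 macrophage markers were at least 2-fold negative on each, with medians of -1.16 and -1.63. Of those, CSF1R and C1QA had spots on both sides of 0 on both arrays, and TREM2 at 4 h. The macrophage marker MARCO was positive, at 0.32 ± 0.42 at 4 h and 0.28 on 1 spot at 8 h. CD3D had -2.70 ± 0.75 and -4.01 ± 0.76. The part of such marker shifts in the members' ratios on these 2 arrays was not tested.

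As a group, the traffic genes were past 2-fold about as often as other genes. After 1 h of E. coli 11 of 79 members were positive (13.9%, against 14.7% of all named genes) and 1 was negative (1.27% against 1.51%). On the LPS 1 h array 1 was positive (1.27% against 3.78%) and 5 were negative (6.33% against 7.37%). The E. coli time array had 6 positive (7.59% against 14.8%) and 7 negative members (8.86% against 8.30%). These shares lie near the background or below it.

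On the 4 h array 14 members were positive (17.7%, as for all named genes at 17.7%) and 7 negative (8.86% against 11.7%). On the 8 h array 10 were positive (12.7% against 15.0%) and 10 negative (12.7% against 12.9%). Median ratios over the members were -0.12, 0.06, 0.01, -0.06 and -0.19 on the E. coli 1 h, LPS 1 h, E. coli time, 4 h and 8 h arrays, against -0.01, 0.05, 0.04, 0.00 and 0.01 for all named genes. The SD over a member's spots had medians of 0.22, 0.21, 0.62, 0.63 and 0.50 on these arrays.

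**Figure D1:**
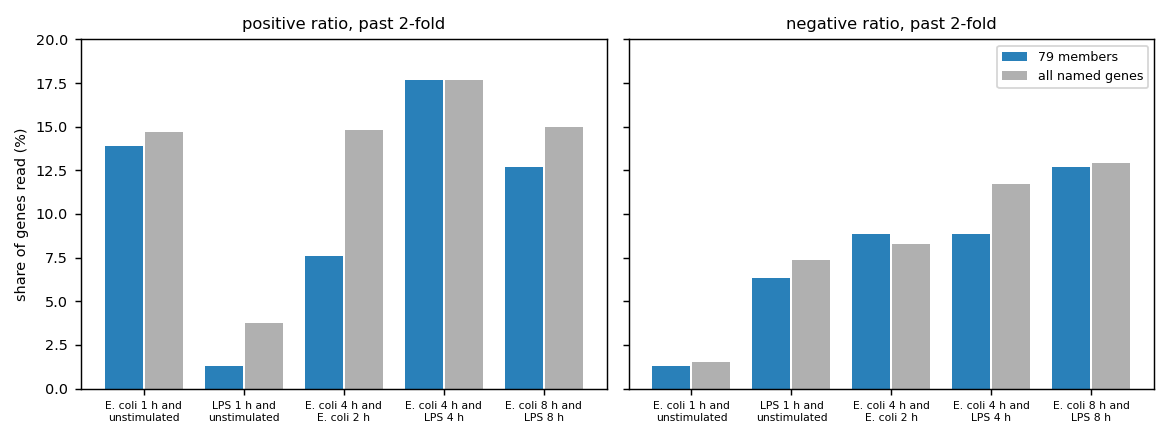
Share of genes past 2-fold in percent of the genes read, for the 79 traffic and proton pump genes (blue) and for all named genes (grey), on each of the 5 ratio arrays, with positive ratios in the left panel and negative ratios in the right panel. The blue bars lie near the grey ones or below them, and the widest gap is on the E. coli time array, with 7.59% against 14.8% positive.

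In all, 41 of the 79 members were within 2-fold on all 5 arrays by their means over clones. Genes within 2-fold that are named without being among the largest of their role were chosen after their values were seen. The steadiest was SEC63, a partner of the protein channel of the endoplasmic reticulum, with no ratio above 0.28 in size. The ESCRT-III subunit CHMP4B stayed within 0.29 and the retromer subunit VPS26A within 0.33. Of the remaining genes 29 were past 2-fold with all spots on the same side on at least 1 array, and these gave 50 pairs of a gene and an array. Counts over all arrays were not made for all named genes. The 41, 29 and 50 therefore do not set the members apart from other genes.

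**Figure D2:**
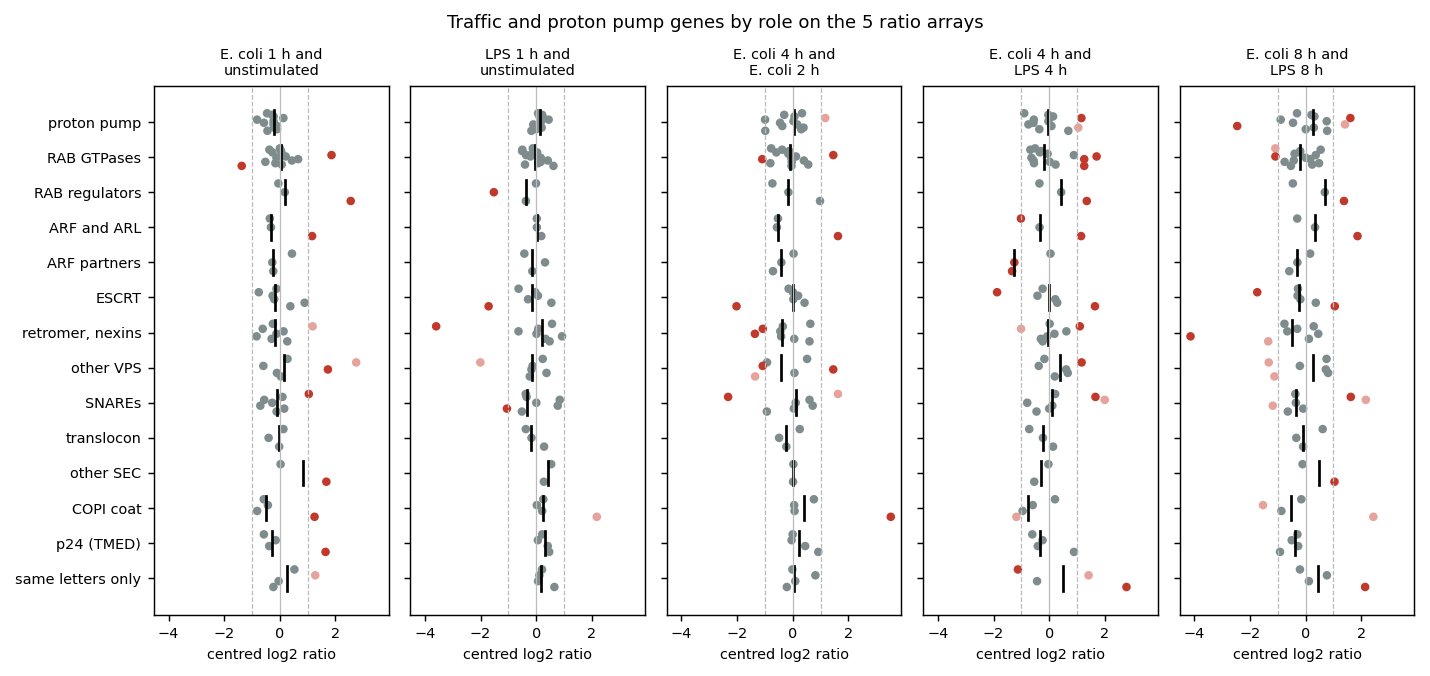
Centred log2 ratio of each of the 79 genes (points) by role (rows) on the 5 ratio arrays (panels), with the median of each role as a black bar and dashed lines at 2-fold. Grey points lie within 2-fold, dark red points past 2-fold with at least 2 spots and all on the same side, and pale red points past 2-fold otherwise; SNX10 stands alone at -3.60 on the LPS 1 h array.

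The endosomal sorting genes held the member of largest ratio on the arrays of 1 h. SNX10, a sorting nexin that acts on endosomes and with the proton pump and is required by osteoclasts in mouse and human, had -3.60 ± 1.14 on the LPS 1 h array, with all 12 spots of 4 clones negative. The 4 clones had -1.84, -4.28, -4.41 and -3.86, so the gene stood past 2-fold on each of them. SNX10 had, on the E. coli 1 h array, 1.18 ± 1.67 with 10 of 12 spots positive. It thus lay on the side of CCL20 and IL1B on both arrays, which were each set against unstimulated cells.

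The clones of SNX10 differed at 1 h of E. coli. Their means were 0.14, 0.18, 2.79 and 1.60, and the third clone included a single spot at 5.68, while its other 2 spots had 1.32 and 1.38. Only 2 of the 4 clones were therefore past 2-fold there, while all 4 were on the LPS 1 h array. SNX10 was within 2-fold on the E. coli time array, at -0.35 ± 0.23.

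At 4 h SNX10 was again past 2-fold, at 1.10 ± 0.63 with 12 of 12 spots positive, which is the side of CCL20 (3.53), IL1B (3.19) and the chemokine IL8L1 (3.27) on that array. Without centring its ratio was 0.99, just within 2-fold. On the 8 h array it had 0.29 ± 0.46, and the spots lay on both sides of 0. At LPS 2 h its intensity was 4.25 ± 3.30, at percentile 96.4 of all named genes, and ranged over its clones, at 1.33, 5.47, 8.62 and 1.58.

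Of the 8 retromer and nexin genes, the other 7 stayed within 2-fold on both arrays of 1 h. With only 7 genes, this count is not read as a trait of the group. SNX1, a membrane-bending nexin of the retromer, had -0.25 ± 0.42 on the E. coli 1 h array and 0.57 ± 0.22 on the LPS 1 h array. The retromer core genes VPS26A and VPS29 had -0.29 ± 0.12 and 0.27 ± 0.37 on the E. coli 1 h array, and 0.33 ± 0.24 and 0.48 ± 0.16 on the LPS 1 h array.

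A pair of nexins stood past 2-fold on the E. coli time array, where 8.30% of all named genes were negative past 2-fold. SNX5, a nexin that recognises cargo for return to the Golgi, had -1.36 ± 0.16 over 3 spots. SNX12, a small nexin of endosomes, had -1.07 ± 0.39 with 8 of 8 spots negative, and its 3 clones had -1.23, -0.98 and -1.01. CCL20, IL1B and IL8L1 were on the same side there, at -0.55, -0.83 and -1.80. The median subtracted on that array was 0.49, close in size to the ratio of CCL20, so the side of CCL20 there rests on the centring. Without centring the ratio of SNX5 was -0.86 and that of SNX12 -0.58, within 2-fold.

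SNX12 was negative at 4 h as well, at -1.01 ± 0.80 with 8 of 9 spots. SNX5 had 0.19 ± 0.74 on that array and 0.45 ± 0.16 on the 8 h array. SNX9, a nexin of endocytic necks, had -4.14 ± 2.77 on the 8 h array, but its clone was dim, at brightness percentile 5.86, and on the other arrays its ratios were at most 0.93 in size. VPS29 had -1.35 ± 1.62 there with spots on both sides, and SNX32 lay within 2-fold throughout.

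ESCRT genes were split, with VPS36 and CHMP2B apart from the rest by their means over clones. VPS36, a subunit of ESCRT-II that binds ubiquitin, had -1.71 ± 0.32 on the LPS 1 h array, from spots at -1.97, -1.81 and -1.36, and 0.38 ± 0.18 on the E. coli 1 h array. It had -2.02 ± 0.31 on the E. coli time array, 1.65 ± 0.10 at 4 h and 1.05 ± 0.61 at 8 h. All spots of VPS36 lay on the same side on each of the 5 arrays, in each case the side of CCL20 on that array after centring. Both arrays of 1 h held unstimulated cells, and the E. coli time and 4 h arrays both held cells at 4 h of E. coli. The 5 readings may therefore not be independent. On the E. coli time array CCL20 had -0.55 and the subtracted median was 0.49, so the side of CCL20 there rests on the centring. On the 8 h array IL1B and IL8L1 had spots on both sides of 0. At 8 h the median over the spots of VPS36 was 0.97, just within 2-fold.

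CHMP2B, a subunit of the ESCRT-III filament, had -1.87 ± 0.21 at 4 h and -1.74 ± 0.16 at 8 h. Its spots lay between -2.10 and -1.68 at 4 h and between -1.90 and -1.58 at 8 h. Earlier it was within 2-fold, at -0.75 ± 0.21 on the E. coli 1 h array and -0.04 ± 0.11 on the LPS 1 h array. Its sign at 4 h and 8 h was that of the macrophage markers given above, and their part in it was not tested.

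The remaining ESCRT genes were CHMP1B, CHMP3, CHMP4B and CHMP5, all of ESCRT-III, and none passed 2-fold. The largest mean among these remaining genes was that of CHMP5, 0.89 ± 1.12 on the E. coli 1 h array, from a dim clone. Over the 6 ESCRT genes the medians were -0.16 and -0.17 on the E. coli 1 h and LPS 1 h arrays, against -0.01 and 0.05 for all named genes.

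**Figure D3:**
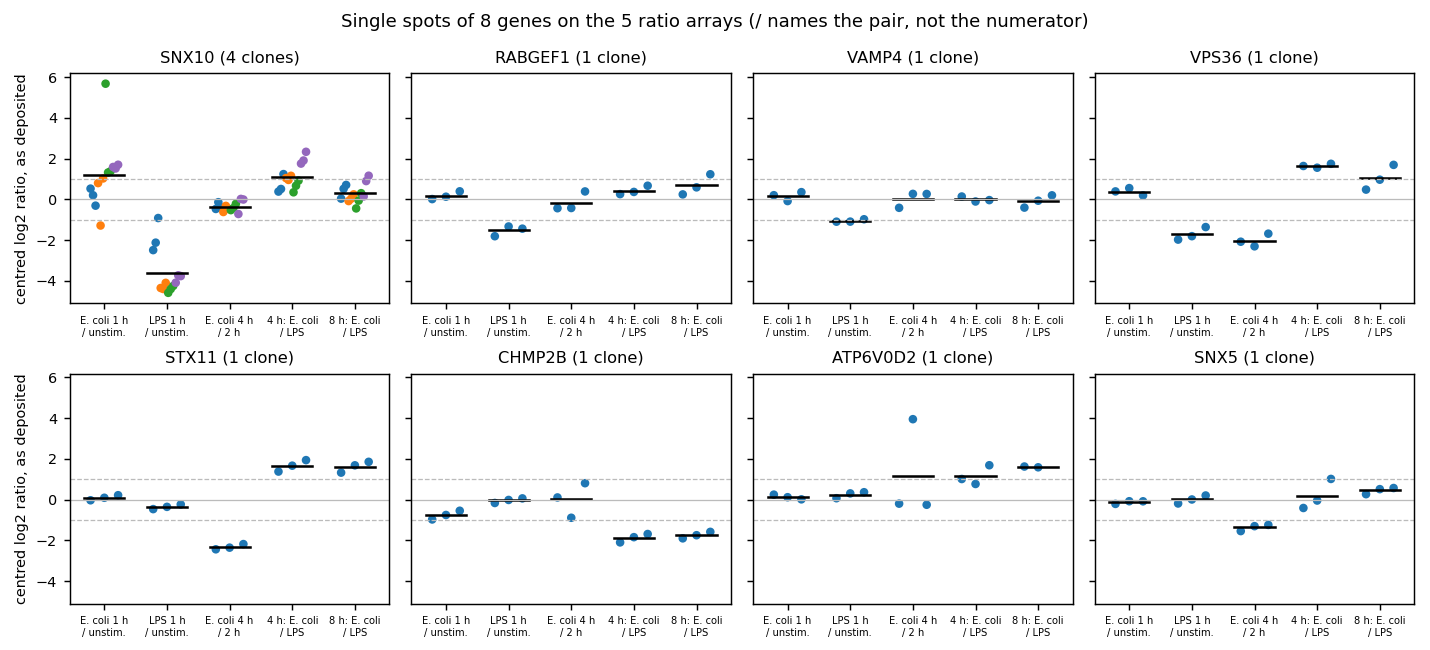
Centred log2 ratio of every spot (points, coloured by clone) and the gene's mean over clones (black bars) for 8 genes on the 5 ratio arrays, with dashed lines at 2-fold. SNX10 reached -3.60 on the LPS 1 h array, STX11 had -2.32 on the E. coli time array and 1.66 and 1.62 on the 4 h and 8 h arrays, and the third clone of SNX10 and the single clone of ATP6V0D2 each held 1 spot far from the others.

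Among regulators of RAB GTPases, RABGEF1 stood apart after LPS. This exchange factor, which activates RAB5 on early endosomes, had -1.52 ± 0.25 on the LPS 1 h array, from spots at -1.81, -1.33 and -1.44. It had 0.18 ± 0.20 on the E. coli 1 h array, within its own spread. It thus lay on the side of CCL20 after LPS and close to 0 after E. coli; whether the 2 stimuli differ was not tested, since each has 1 array at 1 h.

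RABGEF1 was within 2-fold on the 3 later arrays, at -0.16 ± 0.47, 0.43 ± 0.21 and 0.69 ± 0.50 in the order of time. RABIF, a chaperone of RAB GTPases, had 2.55 ± 0.55 on the E. coli 1 h array, 1.35 ± 0.49 at 4 h and 1.38 ± 0.60 at 8 h. Its clone was dim, at brightness percentile 14.4, where ratios of all genes tended to be positive. With the brightness trend removed it had 2.00 on the E. coli 1 h array but 0.63 at 4 h and 0.84 at 8 h, within 2-fold. RABGAP1, which switches RAB GTPases off, stayed within 2-fold.

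The 14 RAB GTPases were quiet on the LPS 1 h array, all within 2-fold, with a median of -0.05 and a range from -0.51 to 0.62. RAB7A, the GTPase of late endosomes and lysosomes, had -0.16 ± 0.13 on the E. coli 1 h array and 0.07 ± 0.26 on the LPS 1 h array. RAB5C of early endosomes had -0.52 ± 0.04 and 0.17 ± 0.14. RAB20, a GTPase of maturing phagosomes, had 0.07 ± 0.22 and -0.15 ± 0.42, and its intensity at LPS 2 h was 1.80 ± 1.06. Its 2 clones lay on opposite sides on the LPS 1 h array, at 0.23 and -0.53. They did so on the E. coli time array as well, at 0.999 and -1.31.

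RAB GTPases tied to toll-like receptor 4 in mammals were also within 2-fold at 1 h. RAB10, which carries the receptor to the surface in mouse macrophages, had 0.00 ± 0.17 on the E. coli 1 h array and -0.12 ± 0.47 on the LPS 1 h array. RAB7B, which sends it to lysosomes, had 0.07 ± 0.16 and -0.40 ± 0.10. All 3 spots of RAB7B were negative after LPS.

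After 1 h of E. coli 2 RAB GTPases passed 2-fold, with limits on both. Of all named genes 14.7% were past it on the positive side there and 1.51% on the negative side. RAB24, linked to autophagy, had 1.86 ± 0.47 from a dim clone at brightness percentile 7.37. RAB9A, which acts between late endosomes and the Golgi, had -1.37 ± 1.48, an SD larger than the ratio, and its spots disagreed at LPS 2 h as well, at 1.98 ± 3.19.

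Later, RAB32 and RAB27A were past 2-fold. RAB32, a GTPase of lysosome-related organelles, had -1.10 ± 0.54 on the E. coli time array and 1.26 ± 1.66 on the 4 h array, with all spots on the same side each time, but -0.82 and 0.54 by the median over spots. Cells at 4 h of E. coli stood on both arrays, so these ratios of RAB32 may not be independent. RAB27A, which docks secretory lysosomes, had 1.71 ± 1.21 at 4 h and -1.09 ± 1.53 at 8 h, both with 3 of 3 spots on the same side, and its median over spots at 8 h was -0.28. RAB24 had 1.46 ± 0.81 on the E. coli time array, RAB9A 1.26 ± 0.54 at 4 h and RAB10 -1.09 ± 1.07 at 8 h with 4 of 5 spots negative. With the brightness trend removed RAB24 had 0.85 and RAB9A 0.97 on those arrays, within 2-fold.

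ARF and ARL GTPases differed from each other in sign. ARL16, a small ARF-like GTPase, was positive on all 5 arrays, at 1.16 ± 0.39, 0.18 ± 0.09, 1.63 ± 0.53, 1.15 ± 0.71 and 1.87 ± 0.77 in the order E. coli 1 h, LPS 1 h, E. coli time, 4 h and 8 h. Its brightness percentile was 34.0, and with the brightness trend removed it had 0.99 on the E. coli 1 h array and 0.87 at 4 h, within 2-fold. ARF1, which recruits the COPI coat to the Golgi, had -1.02 ± 0.47 at 4 h with 9 of 9 spots negative and was within 2-fold elsewhere, and ARF6 of the plasma membrane stayed within 2-fold on all arrays.

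Of the 3 partners of ARF proteins, 2 were negative past 2-fold at 4 h, as were 11.7% of all named genes and 8.86% of the members. With only 3 genes, this count is not read as a trait of the group. ARL6IP5, a membrane protein that binds an ARF-like GTPase, had -1.33 ± 0.45 and ARFIP2, a membrane-curving binder of ARF and RAC proteins, -1.25 ± 0.33, each with 3 of 3 spots negative. ARFGAP3, a GTPase activator of the Golgi, had 0.05 ± 0.60. ARL6IP5 and ARFIP2 shared their side with CHMP2B and ARF1 and with the macrophage markers on that array. With the brightness trend removed, ARL6IP5 had -0.90 and ARF1 -0.64, within 2-fold.

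SNAREs included the brightest member, STX11. This syntaxin, needed for secretion by cytotoxic lymphocytes and mutated in a human hyperinflammatory syndrome, had an intensity of 5.97 ± 0.539 at LPS 2 h, at percentile 98.4. At 1 h it was within 2-fold, at 0.10 ± 0.12 on the E. coli array and -0.35 ± 0.12 on the LPS array, the latter from spots at -0.46, -0.35 and -0.23. The E. coli time array gave it -2.32 ± 0.13, from spots at -2.43, -2.35 and -2.18.

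STX11 was then positive at 4 h, at 1.66 ± 0.28, and at 8 h, at 1.62 ± 0.27, with all 3 spots on the same side on each array. Those are the sides that CCL20 took on the last 3 arrays. On the E. coli time array the side of CCL20, at -0.55, rests on the centring, which subtracted 0.49. At 8 h the positive side rests on few genes, with 1.73 ± 0.31 for CCL20 and 0.54 ± 0.17 for NFKBIA. There IL1B at 0.65 ± 0.90 and IL8L1 near 0 had spots on both sides. Cells at 4 h of E. coli stood on both the E. coli time array and the 4 h array, so these 2 ratios may not be independent.

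VAMP4, a SNARE of the trans-Golgi network, had -1.05 ± 0.07 on the LPS 1 h array, from spots at -1.09, -1.09 and -0.98. On the other arrays its ratios were between -0.09 and 0.16. The size on the LPS 1 h array was thus just past the threshold, with little spread over spots, on the side of CCL20. It was -0.76 without centring and -0.94 with the brightness trend removed, both within 2-fold.

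The remaining SNAREs past 2-fold rested on dim clones or single spots. STX10, a Golgi syntaxin, had 1.04 ± 0.32 on the E. coli 1 h array and 1.63 ± 1.75 on the E. coli time array from a dim clone at percentile 17.6, and 0.58 on the E. coli 1 h array with the brightness trend removed. STX12, a syntaxin of recycling endosomes, had 2.00 and 2.16 on the 4 h and 8 h arrays, on 1 spot each. STX7 of late endosomes had -1.18 at 8 h on 1 spot, while STX16 and VAMP7, a SNARE of lysosome fusion, were within 2-fold, and VAMP7 was negative on all 5 arrays, between -0.93 and -0.11.

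The tethering complex HOPS joins late endosomes to lysosomes, and 5 of its subunits were read. VPS33A had 1.73 ± 0.63 on the E. coli 1 h array and 1.46 ± 0.19 on the E. coli time array, with 3 of 3 spots positive, at brightness percentile 24.9. VPS18 had -1.08 ± 0.16 on 2 spots of the E. coli time array, with -0.58 without centring and -0.86 with the brightness trend removed. Subunits of the same complex therefore stood on opposite sides there.

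VPS11 and VPS39 were within 2-fold on all arrays as means over clones, though the clones of VPS11 had -1.05 and 0.70 at 4 h. VPS16 had the dimmest clone of all members, at percentile 0.710, and its ratios ran from 2.75 ± 5.67 on the E. coli 1 h array to -2.01 on 1 spot of the LPS 1 h array. Its value of 1.17 ± 0.18 at 4 h turned to -0.10 once the trend with brightness was removed. VPS45, a partner of syntaxins, had -1.35 ± 3.23 on the E. coli time array and -1.12 on 1 spot at 8 h.

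The vacuolar proton pump was represented by 12 genes, 7 of the V1 part that splits ATP, 3 of the membrane-bound V0 part and 2 accessory proteins. On the arrays of 1 h none passed 2-fold. With E. coli, 14.7% of all named genes crossed that threshold upward and 1.51% downward. With LPS, 3.78% did so upward and 7.37% downward. Since only 12 pump genes were read, their staying within 2-fold is not taken as a trait of the pump. Of the 12 pump genes 11 were negative on the E. coli 1 h array, with a median of -0.22 and a range from -0.82 to 0.13, while 50.5% of all named genes were negative, with a median of -0.01. After removal of the brightness trend 10 of 12 were negative, with a median of -0.16.

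On the LPS 1 h array 8 of the 12 pump genes were positive, with a median of 0.14 and a range from -0.17 to 0.45, while 54.3% of all named genes were positive, with a median of 0.05. After removal of the trend 10 of 12 were positive, with a median of 0.24. Both arrays were set against unstimulated cells, so these counts may not be independent. The macrophage markers had medians of -0.59 on the E. coli 1 h array and 0.04 on the LPS 1 h array, and their part in the pump's values was not tested.

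ATP6V0E1, a small membrane subunit, had the largest ratios of the pump on both arrays of 1 h, -0.82 ± 0.12 after E. coli and 0.45 ± 0.19 after LPS, with all 3 spots on the same side each time. ATP6V1B2, a subunit of the ATP-splitting ring, had -0.57 ± 0.16 and 0.15 ± 0.15, with 6 of 6 spots on the same side on each. ATP6AP2, the accessory protein also called the prorenin receptor, had -0.27 ± 0.19 and 0.21 ± 0.07, with 9 of 9 spots positive on the LPS 1 h array. ATP6AP1, the other accessory protein, had -0.46 ± 0.15 and 0.06 ± 0.12.

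The remaining pump genes had ratios of at most 0.44 in size on these arrays. ATP6V1A, which binds ATP, had -0.22 ± 0.11 on the E. coli 1 h array and 0.16 ± 0.10 on the LPS 1 h array, and ATP6V0C, the proton-carrying ring, -0.22 ± 0.53 and 0.12 ± 0.12. The 2 clones of ATP6V0C differed in sign, at 0.26 and -0.70 on the E. coli 1 h array and at 0.69 and -0.56 on the E. coli time array. ATP6V1G1 of the stalk had -0.44 ± 0.11 and -0.17 ± 0.13, and ATP6V1E1, also of the stalk, -0.10 ± 0.29 after E. coli and a mean at 0 after LPS. ATP6V1C1 and ATP6V1D had -0.23 ± 0.24 and -0.21 ± 0.24 after E. coli, and -0.11 ± 0.24 and 0.19 ± 0.07 after LPS.

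At later times the d subunit ATP6V0D2, known from osteoclasts and macrophages in mouse, was past 2-fold. It had 1.16 ± 0.48 at 4 h, from spots at 1.01, 0.77 and 1.69, and 1.61 ± 0.03 at 8 h on 2 spots. At 1 h it had 0.13 ± 0.12 on the E. coli array and 0.25 ± 0.16 on the LPS array. Its mean of 1.17 ± 2.41 on the E. coli time array came from 1 spot at 3.95, with the others at -0.19 and -0.25.

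ATP6V1C2, a form of the C subunit with narrow expression in mammals, had -2.46 ± 1.28 at 8 h with 3 of 3 spots negative and was within 2-fold on the other arrays. ATP6V1C1 had 1.42 ± 4.62 at 8 h on 2 spots of opposite side, and ATP6V1D 1.05 ± 1.94 at 4 h with 2 of 3 spots positive. The other 8 pump genes stayed within 2-fold at all times as means over clones. Some of these means joined clones that differed. On the E. coli time array the clones of ATP6V1E1 had 1.39 and -0.78. At 4 h those of ATP6V1B2 had -0.01 and -1.12, and those of ATP6AP2 had 1.13, -0.80 and -0.42. The pump's median was 0.05 on the E. coli time array, -0.03 at 4 h and 0.25 at 8 h.

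**Figure D4:**
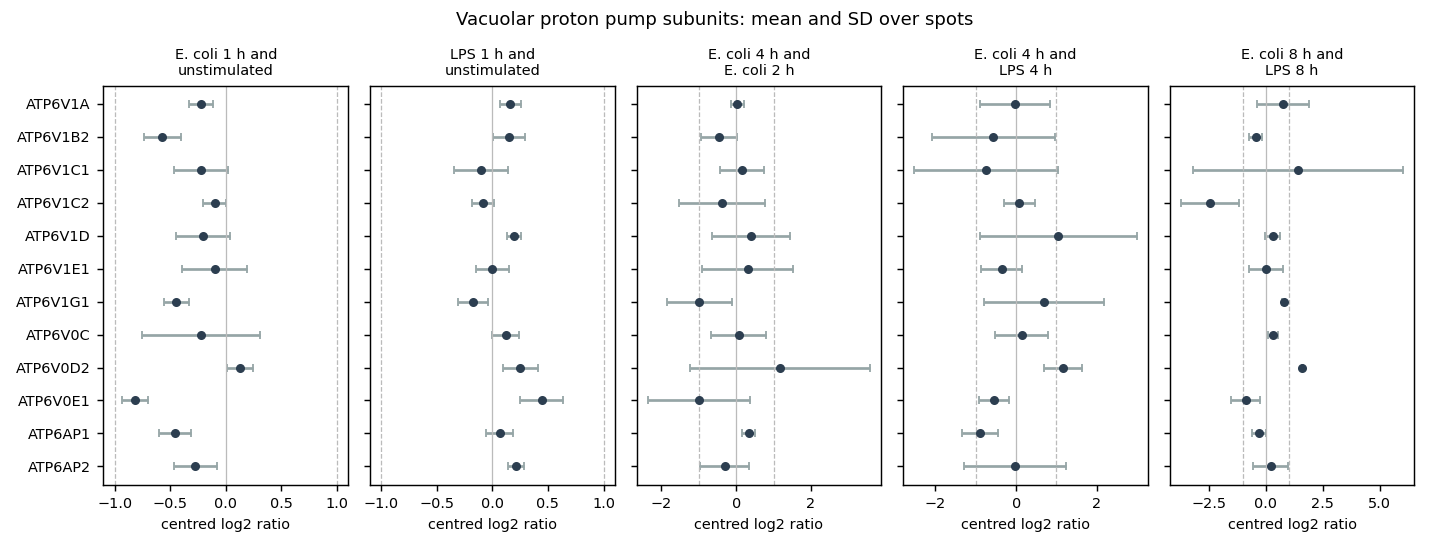
Centred log2 ratio of the 12 vacuolar proton pump genes (rows) on the 5 ratio arrays (panels), as the mean over clones with the SD over spots as bars and dashed lines at 2-fold; the horizontal scale differs between panels. On the E. coli 1 h array 11 of 12 points lie below 0 and on the LPS 1 h array 8 of 12 above 0, all within 2-fold, while ATP6V0D2 lies at 1.16 and 1.61 on the 4 h and 8 h arrays.

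The early secretory path runs between endoplasmic reticulum and Golgi. Its COPI coat subunits COPA, COPB2 and COPE had -0.58 ± 0.44, -0.43 ± 0.27 and -0.81 ± 0.73 on the E. coli 1 h array, with no spot above 0, and 0.25 ± 0.12, 0.02 ± 0.12 and 0.21 ± 0.16 on the LPS 1 h array. COPE had -0.96 ± 0.41 at 4 h. COPB2 had -1.53 ± 1.57 at 8 h, where its 2 clones had -0.48 and -2.59.

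COPG2, another COPI subunit, gave large and unsteady values, at 1.25 on 2 spots, 2.18 ± 3.78, 3.53 ± 2.31, -1.18 ± 3.14 and 2.44 on 1 spot in the order of the arrays above. With the brightness trend removed it had 0.78 on the E. coli 1 h array. Its intensity at LPS 2 h was 0.271 ± 0.546, an SD larger than the level. The cargo receptors TMED2, TMED5 and TMED10 of the p24 family were within 2-fold on all arrays. TMED7, another p24 receptor, had 1.65 ± 0.26 on the E. coli 1 h array from a dim clone at percentile 12.8.

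The channel subunits SEC61A1 and SEC61B and their partner SEC63, which move new proteins into the endoplasmic reticulum, were within 2-fold throughout. SEC61A1 had -0.37 ± 0.05 on the LPS 1 h array with 3 of 3 spots negative and 0.13 ± 0.11 on the E. coli 1 h array. SEC31B, of the outer COPII coat, had 1.67 ± 1.66 on the E. coli 1 h array and 1.04 ± 0.58 at 8 h, at brightness percentile 3.46. With the brightness trend removed it had 0.91 and 0.27, and by the median over spots 0.95 and 0.74, all within 2-fold. SEC14L1, a lipid-binding protein, was within 2-fold.

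The members that share only the letters had some of the larger ratios. SECISBP2L had 2.78 ± 2.05 at 4 h and 2.14 ± 0.85 at 8 h from a dim clone at percentile 13.7. COPS3 had -1.12 ± 0.73 at 4 h with 3 of 3 spots negative, and -0.86 by the median over spots. COPS4 passed 2-fold on the E. coli 1 h array at 1.28 and at 4 h at 1.42 through 1 of its 2 clones, with 2.91 and -0.36 for the clones on the first of these, while COPS8 was within 2-fold.

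Brightness of the clone at LPS 2 h went along with the ratio on several arrays, for members as for other genes. It was read in cells after LPS, so it also holds each gene's RNA level in those cells. CCL20 had an intensity of 12.2 there and IL1B 10.7. Whether removing the trend with brightness also took away part of a response to LPS was not tested. On the E. coli 1 h array the 12 members of the dimmest 25% of genes had a median of 1.34, against 0.62 for the 564 genes that dim, and the 20 members of the brightest 25% had -0.21, against -0.20. Of the 11 positive members there 7 were in the dimmest 25%. All named genes showed a like pattern. Leaving out the dimmest 25% took the positive share from 13.9% to 5.97% for members and from 14.7% to 7.16% for all named genes. On the LPS 1 h array 1 of the 5 negative members was in the dimmest 25%. Without that class the negative shares there were 5.97% for members and 8.05% for all named genes, and with it 6.33% and 7.37%. The medians of dim and bright members on that array were 0.05 and -0.08. The medians of all genes that dim or bright were 0.27 and -0.15. At 4 h dim and bright members had 0.75 and -0.43, against 0.80 and -0.41 for all genes that dim or bright.

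**Figure D5:**
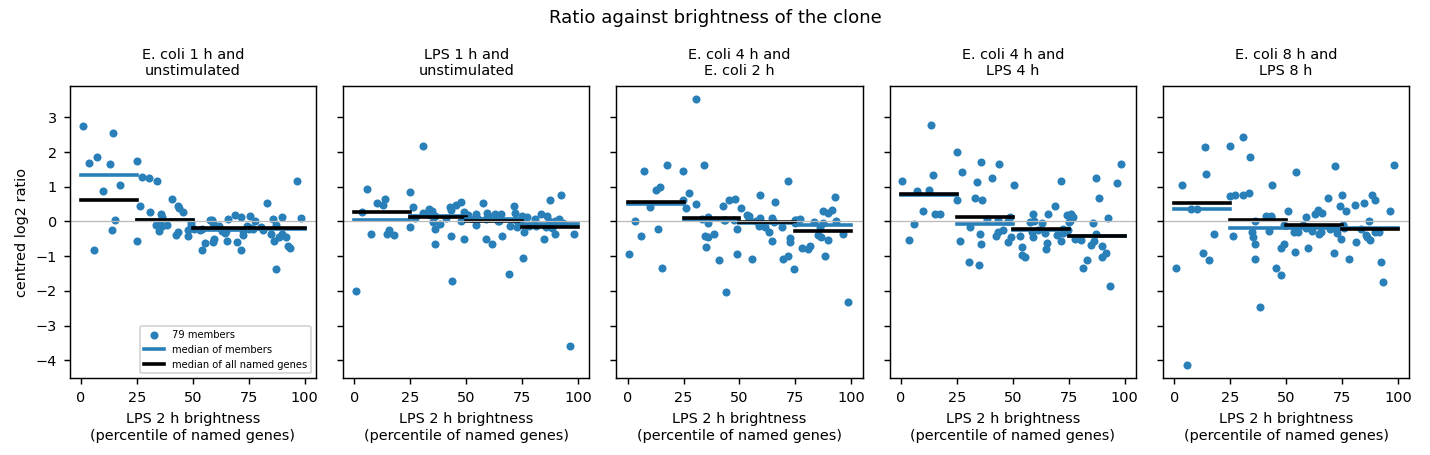
Centred log2 ratio of the 79 genes (points) against the brightness of their clones at LPS 2 h, as percentile among all named genes, on the 5 ratio arrays, with medians over 4 equal classes of brightness for the members (blue) and for all named genes (black). On the E. coli 1 h array the median of the dimmest members is 1.34 and that of the brightest -0.21, and SNX10 and STX11 are among the brightest points.

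Members with several clones gave a check of the readings within an array. For 26 members with 2 to 4 clones, the median gap between the highest and the lowest clone was 0.27 on the E. coli 1 h array, 0.21 on the LPS 1 h array, 0.51 on the E. coli time array, 0.68 at 4 h and 0.58 at 8 h. In the same order of arrays, clones of 9, 12, 14, 10 and 10 of these 26 members lay on both sides of 0. The side of a mean thus often differed from that of a single clone. For the 53 members with 1 clone no such check was possible. The gap was widest for COPS4 on 3 of the arrays, at 3.27 on the E. coli 1 h array. SNX10 had the widest gap on the LPS 1 h array, 2.57, with all its clones negative.

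Other genes of endocytosis and secretion came from a written list of 145, of which 35 were read. On the E. coli 1 h array 3 were positive (8.57%, against 14.7% of all named genes) and 1 negative (2.86% against 1.51%). On the LPS 1 h array 1 was positive (2.86% against 3.78%) and 2 were negative (5.71% against 7.37%). On the E. coli time array 3 were positive and 3 negative (8.57% each, against 14.8% and 8.30%). At 4 h 5 were positive (14.3% against 17.7%) and 8 negative (22.9% against 11.7%), and at 8 h 4 were positive (11.4% against 15.0%) and 2 negative (5.71% against 12.9%). The negative share at 4 h was thus above that of all genes, and with 1 array this was not tested. The list's medians were 0.11, 0.15, -0.02, -0.23 and -0.11, against -0.01, 0.05, 0.04, 0.00 and 0.01 for all named genes. The genes named next were picked after their values were seen, apart from STEAP3.

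At 1 h, CLTA, a light chain of clathrin, had -1.29 ± 0.13 on the E. coli 1 h array with 9 spots on the same side, and the cargo receptor ERGIC2 (1.02 ± 0.55) and the carrier protein SCAMP2 (1.18 ± 0.79) were positive. The clone of ERGIC2 was dim, at brightness percentile 13.4. On the LPS 1 h array EHD3, which remodels recycling endosomes, had -2.29 ± 0.51 with 8 spots on the same side. The exocyst subunit EXOC6 had 1.11 ± 0.58 there, from a dim clone at percentile 0.178. STEAP3, an endosomal iron reductase, was past 2-fold on both, at 1.45 ± 0.31 and -2.03 ± 3.01, from a dim clone at percentile 13.7. EHD3 and STEAP3 were thus on the side of CCL20 after LPS.

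At 4 h 8 of the 35 genes were negative. The clathrin heavy chain CLTC had -1.38 ± 0.30, the adaptor subunit AP3S1 -1.42 ± 0.32, the mannose 6-phosphate receptor M6PR -1.35 ± 0.98 and SAR1A, the GTPase of the COPII coat, -1.58 ± 0.72, each with all spots on the same side. The other negative genes were CLCN5 (-2.39), EXOC4 (-1.82), BLZF1 (-1.08) and LAMP1 (-1.06), with SDs of 0.80 to 1.79. The clones of CLCN5 and EXOC4 were dim, at brightness percentiles 18.9 and 17.0. ERGIC2, TRAPPC3, EXOC6, SCAMP2 and STEAP3 were positive, at 1.34 to 2.49, and EXOC6 had an intensity below 0 at LPS 2 h. All of these positive genes but SCAMP2 had dim clones, at percentiles from 0.178 to 13.7.

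At 8 h ERGIC2 had 2.22 ± 0.09, FLOT2, a flotillin of membrane rafts, 3.39 ± 0.66 on 2 spots, EXOC6 3.03 ± 0.97 and SAR1B 1.01 ± 1.30. On the negative side TRAPPC3 had -2.31 ± 0.28 on 2 spots and EXOC4 -1.32 ± 2.47. All of these but SAR1B had dim clones. Brightness percentiles were 13.4 for ERGIC2, 7.77 for FLOT2, 0.178 for EXOC6, 4.26 for TRAPPC3 and 17.0 for EXOC4. EXOC7 had -1.49 ± 0.26 and STEAP3 2.18 ± 0.51 on the E. coli time array. CLTA, EXOC6, TRAPPC3 and ITSN1 were past 2-fold there with spots on both sides of 0.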

How the data were processed

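Values were the authors' deposited ones. The 5 ratio arrays hold a log2 ratio per spot as deposited, with base 2 assumed, and the LPS 2 h array a deposited intensity on a scale not given in the sources used here. Scanner, normalization, numerator and dyes are likewise not given there. Every deposited column was used (0 left out).

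Each array's median over spots was subtracted, spots were averaged per clone and clones per gene. Of the 14718 spots, 13310 to 14361 had a ratio. Rows with several genes were left out. Symbols came from the platform annotation, and 2228 of 2255 identifiers matched RefSeq's GRCg7b gene table, all 79 members included. Arrays were analysed with Python 3.11.15, pandas 2.3.3, numpy 2.4.6 and statsmodels 0.14.6, whose lowess (span 0.3) gave the trend with brightness. The averaging was tested on simulated data, in which all clones of a gene shared the same effect with normal noise and no missing spots. That simulation therefore did not test clones that disagree, single outlying spots or missing spots, all of which occur in these data. With 1 array per comparison no test was made.

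Named genes were members past 2-fold with at least 2 spots and all on 1 side, every proton pump gene, the 3 of largest ratio in each role, and other pathway genes past 2-fold with 1 side on both arrays of 1 h. The members and the gene lists were chosen with earlier results of these data known. Alternatives were no centring, trend removal, spot medians, leaving out the dimmest 25%, leaving out symbols that share only letters, and 1.5-fold. Sequences and promoters were not analysed here.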

Additional observations from a re-analysis of the deposited data

How the results depend on the processing

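Shares in brackets are those of the members against all named genes. Without centring, the LPS 1 h array had 4 members positive (5.06% against 7.15%) and 4 negative (5.06% against 5.46%) past 2-fold. With centring it had 1 and 5, and its member median without it was 0.35. The E. coli time array had 16 positive (20.3% against 28.7%) and 2 negative (2.53% against 3.11%), where centring gave 6 and 7. Its median without centring was 0.51. The medians subtracted on these 2 arrays were 0.29 and 0.49. With the brightness trend removed, the E. coli 1 h array had 6 positive (7.59% against 9.87%) and 2 negative members (2.53% against 3.78%), and VPS16 at 4 h turned to -0.10. With spot medians the LPS 1 h array had 2 positive members (2.53% against 3.51%). Without the dimmest 25% of genes, 4 of 67 members were positive on the E. coli 1 h array (5.97% against 7.16%). On the E. coli time array 3 were positive (4.48% against 9.35%), and at 8 h 6 (8.96% against 8.81%). At 4 h 10 were positive in this setting (14.9% against 9.70%), above the share of all genes. At 1.5-fold there were more, as a lower threshold must give. The E. coli 1 h array had 8 negative members (10.1% against 9.37%) and the LPS 1 h array 6 positive (7.59% against 9.68%). The E. coli time array had 14 positive (17.7% against 25.9%) and 16 negative (20.3% against 20.1%). At 4 h 16 were negative (20.3% against 23.1%), and at 8 h 18 positive (22.8% against 25.6%) and 18 negative (22.8% against 24.5%). The cause of the other shifts was not tested. Of the 50 pairs of a gene and an array past 2-fold on 1 side, 43 stayed past it without centring, 35 with the trend removed, 43 with spot medians and 35 without the dimmest 25%, which left 15 with no value. Leaving out symbols that share only letters moved no count by more than 1.5 times. Leaving out a replicate was not possible with 1 array per comparison. No paired analysis was possible because no comparison has replicates. Dim clones limit the readings, since 12 members lay in the dimmest 25% of genes.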
